A study of Mus musculus with 108 samples.

Results

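In 10 control eyes the optic nerve head (ONH) was compared with the same eye's retina. These eyes gave 20 of the 108 arrays of a study of inherited glaucoma in mice. Arrays were chosen by their titles as ONH or retina samples of D2-Gpnmb+ controls, and the 2 arrays of an eye were matched through the side and mouse number in their descriptions. The control mice were female, 10.5 months old and of the strain written DBA/2J-Gpnmb+ or D2-Gpnmb+ in the labels, which carries a working Gpnmb gene on the DBA/2J background and is labelled as having no glaucoma. The 10 eyes came from 7 mice, 3 of which gave both eyes (eyes 2 and 3, eyes 4 and 5, and eyes 6 and 7). For a single further comparison, 20 eyes with both tissues from 19 female DBA/2J mice of the same age were used, labelled as no or early glaucoma and titled as sets 1 and 2 with 10 eyes each. DBA/2J mice lack functional Gpnmb and develop a pigment-dispersing iris disease that raises eye pressure, and both strains share the Tyrp1 mutation of the DBA/2J background. According to the labels, the ONH was punched out with a 1 mm glass capillary placed over the optic nerve, so that it holds some central retina, choroid and sclera, and the retina sample holds no ONH.

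The retina is a layered sheet in which rods and cones pass their signal through ribbon synapses to bipolar cells and from there to ganglion cells, with horizontal and amacrine cells acting sideways and Müller glia spanning all layers. Ganglion cell axons leave the eye through the ONH, where in the mouse a dense meshwork of astrocytes, the glial lamina, surrounds them before they gain myelin behind the eye. Around this glial core lie the central retinal vessels, the meninges, the sclera, the choroid and the retinal pigment epithelium, and it is in the lamina that ganglion cell axons are thought to be injured in glaucoma.

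Expression was read as log2 signals of Affymetrix Mouse Genome 430 2.0 probe sets, 1 probe set per gene, for 11487 genes with a signal of at least log2 5 on 10 or more of the 20 arrays, out of 18194 genes on the array. All differences below are ONH minus retina within an eye, on the log2 scale, with the standard error over 10 eyes from limma. P-values are two-sided and adjusted by the Benjamini-Hochberg method over all 11487 genes, and a gene was called at an adjusted p under 0.05. They measure the spread between these eyes, and the eyes of 1 mouse were kept as a random block. The median signal of an array was 5.02 to 5.09 for ONH punches and 5.08 to 5.16 for retinas. The brightest probe set of an array lay at 13.58 to 13.76 in the ONH against 14.11 to 14.27 in the retina, and the labels do not settle whether both tissues were normalized together. The median difference over all genes was -0.29, so each gene is to be read beside that value. In whole tissue, fewer cells of a type and less RNA per cell cannot be told apart.

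A few arrays stood apart from the other 9 of their tissue. The retina array of eye 6 lay below every other retina array by more than 1 on the log2 scale in 31 genes, 29 of which were called higher in the ONH, among them Gja1, Vcan and Ltbp2. The ONH array of eye 10 lay that far below the others in 56 genes, 37 of them called higher in the retina. The ONH array of eye 4 lay above the others in 18 genes and below them in 10, all 10 called higher in the retina, and that of eye 7 lay above the others in 9 genes. Each other array had at most 7 such genes. Leaving out any 1 eye left between 3236 and 3354 genes called higher in the ONH and between 6429 and 6673 called higher in the retina.

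Most genes differed between the tissues of a control eye. Of the genes tested, 3334 (29%) were higher in the ONH and 6602 (57.5%) were higher in the retina, together 86.5%. Counts of called list members given below are to be read beside these shares. At 2-fold or more the balance turned, with 1721 genes (15%) higher in the ONH and 1382 (12%) higher in the retina, in sum 3103 (27%). At 8-fold or more, 484 genes (4.21%) were higher in the ONH and 10 (0.0871%) were higher in the retina. In 2301 genes (20%) all 10 ONH arrays lay above all 10 retina arrays, and in 4212 genes (36.7%) all lay below them, so that the tissues did not overlap in 6513 (56.7%). A mean level under log2 5 in the retina beside one above it in the ONH was found for 841 genes, and the reverse for 434. The size of their differences is uncertain, since a level under 5 was treated as a bound and not as a measured level. That holds as well for differences given below without a bound, among them those of Nes, Mrc1, Ptprc and C1s1. It also holds for the counts at 2-fold or 8-fold that include such genes. Where all arrays of 1 tissue lay under 5, a gene passed the filter only if all 10 arrays of the other reached it. Its direction was then fixed by the filter, and its place in a list count is no evidence for that direction. Members of this kind are in the fibroblast, smooth muscle, microglia, complement, Schwann cell, myelin and immediate early lists, among others.

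**Figure D1:**
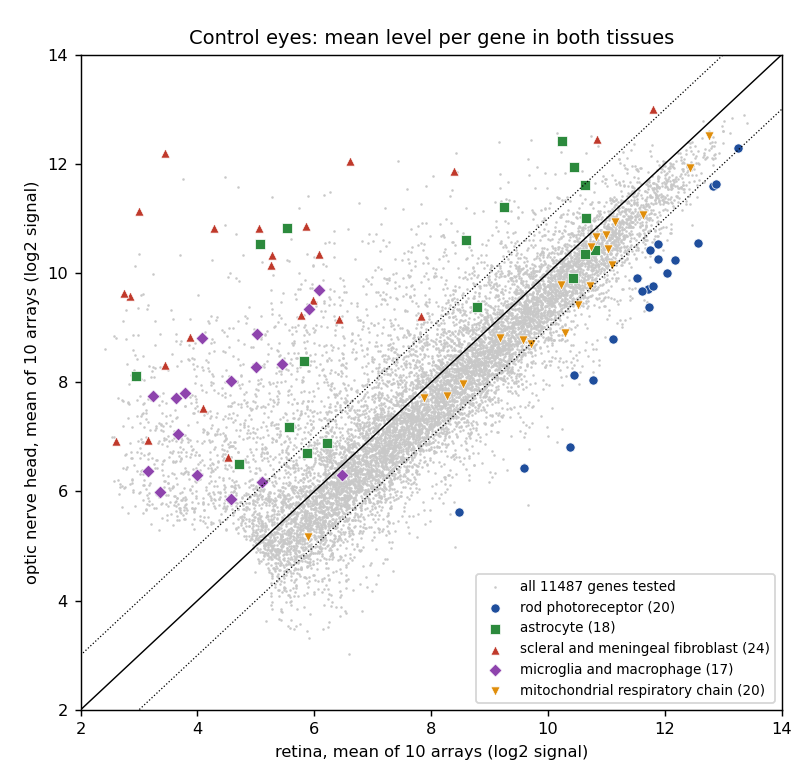
Mean log2 level over the 10 retina arrays (horizontal) against the mean over the 10 ONH arrays (vertical) for the 11487 genes tested, each grey point 1 gene, with the tested members of 5 lists in colour, a solid line at equal levels and dotted lines at 2-fold. Fibroblast, microglia and astrocyte genes lie mostly far above the line, rod genes lie below it, and the cloud reaches much farther above it (484 genes past 8-fold) than below (10 genes).

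The largest difference belonged to Dcn, which encodes decorin, a small proteoglycan that binds collagen fibrils. Its level ran from 11.78 to 12.46 with a median of 12.23 in the ONH and from 2.99 to 4.34 with a median of 3.16 in the retina, a difference of 8.74 ± 0.13 (SE, n = 10 eyes, limma adjusted p = 2.85e-14). The tissues did not overlap, and with the retina set at the filter level of 5, below which a signal was treated as a bound, the difference was still at least 7.19. Mean retina levels under 5 also make bounds of the next genes. Col3a1 (type III collagen) differed by 8.10 ± 0.08, or at least 6.13, and Apod (apolipoprotein D, a lipid carrier) by 7.97 ± 0.12, or at least 6.72. In 3 further matrix genes the difference was 6.87 (at least 4.64) for Lox (lysyl oxidase, which cross-links collagen), 6.70 (at least 4.58) for Lum (lumican) and 6.54 (at least 5.83) for Bgn (biglycan). It was 7.29 (at least 6.75) for Lyz1 and 6.89 (at least 6.58) for Lyz2, lysozyme genes of phagocytes, and 7.30 (at least 5.34) for the immunoglobulin kappa gene Igk. By the bounds, Dcn stays first and Lyz1, Apod and Lyz2 come before Col3a1. The lysozyme genes are near-identical, and their probe sets may not tell them apart.

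The 10 genes at least 8-fold higher in the retina were Smim31, Prph2, Tbx5, Opn1mw, Ankrd33, Cngb1, Cerkl, A930003A15Rik, Rtkn2 and Cabp4. Prph2, the tetraspanin that shapes the rim of photoreceptor discs, ran from 10.15 to 10.67 with a median of 10.41 in the retina and from 5.12 to 8.31 with a median of 7.10 in the ONH, a difference of -3.58 ± 0.24 (limma adjusted p = 1.41e-08). Every retina array lay above every ONH array and the ONH arrays were spread more widely than the retina arrays. Tbx5, a transcription factor of the dorsal retina, ran from 2.60 to 3.36 in the ONH with a median of 3.01, always under the filter level, against 6.29 to 6.94 with a median of 6.63 in the retina. Its difference was -3.55 ± 0.05 (limma adjusted p = 3.90e-14), or at least 1.59 in favour of the retina with the ONH set at 5.

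Genes of rods, the photoreceptors of dim light, were lower in the punch without exception among those tested: all 20 rod genes were called higher in the retina, 19 of them at 2-fold or more, with a median difference of -2.02 beside -0.29 for all genes. Phototransduction was represented by Gnat1 (the rod transducin alpha subunit), Pde6a (a subunit of the phosphodiesterase that hydrolyses cGMP), Cngb1 (a subunit of the cGMP-gated channel), Sag (rod arrestin) and Rcvrn (recoverin, a calcium sensor). Gnat1 ran from 12.76 to 12.90 with a median of 12.81 in the retina and from 10.56 to 12.19 with a median of 11.71 in the ONH, and differed by -1.23 ± 0.13 (limma adjusted p = 1.27e-06). Cngb1 ran from 9.45 to 9.71 with a median of 9.59 in the retina and from 5.04 to 7.39 with a median of 6.52 in the ONH, a difference of -3.18 ± 0.18 (adjusted p = 2.39e-09). Neither gene overlapped between tissues. The differences were -2.86 for Pde6a, -2.36 for Rcvrn and -0.96 for Sag, so the members of the list ranged from -0.96 to -3.58.

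Rod genes are switched on by the homeodomain factor CRX, whose own gene Crx differed by -1.62 ± 0.17 between the tissues, with 11.43 to 11.64 in the retina and 8.74 to 10.78 in the ONH. The letters TAATCC, the core that CRX is known to bind, were searched on both strands in RefSeq promoter windows of build GRCm38.p6, from 250 bases before to 50 bases after the gene start. They occurred in 7 of 13 rod genes with a window (53.8%), against 8.14% of all 27025 genes with one and 7.29% of the tested genes. In the cone list 2 of 6 genes held them (33.3%), and so did 3 of 7 pigment genes (42.9%), which were higher in the ONH, and 2 of 14 myelin genes. A match is a description of these letters and not of a bound site. Shown are 3 windows that hold them more than once, with TAATCC or its reverse complement GGATTA in capitals, from Crx itself (chr7:15879906-15880205, minus strand), Cngb1 (chr8:95306536-95306835, minus strand) and Aipl1 (chr11:72037460-72037759, minus strand), a chaperone for the rod phosphodiesterase that differed by -2.32 ± 0.20.
Crx: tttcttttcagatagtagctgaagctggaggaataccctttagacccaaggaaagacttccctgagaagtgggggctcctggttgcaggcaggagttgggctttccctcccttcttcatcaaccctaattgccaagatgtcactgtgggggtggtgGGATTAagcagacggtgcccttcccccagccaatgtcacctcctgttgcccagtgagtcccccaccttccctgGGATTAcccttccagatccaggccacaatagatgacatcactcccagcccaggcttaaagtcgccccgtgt
Cngb1: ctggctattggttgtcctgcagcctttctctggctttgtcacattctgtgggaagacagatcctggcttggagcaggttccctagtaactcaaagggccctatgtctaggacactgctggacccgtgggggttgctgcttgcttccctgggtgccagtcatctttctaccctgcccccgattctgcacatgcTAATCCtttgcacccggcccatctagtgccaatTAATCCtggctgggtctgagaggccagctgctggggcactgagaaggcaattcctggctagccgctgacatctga
Aipl1: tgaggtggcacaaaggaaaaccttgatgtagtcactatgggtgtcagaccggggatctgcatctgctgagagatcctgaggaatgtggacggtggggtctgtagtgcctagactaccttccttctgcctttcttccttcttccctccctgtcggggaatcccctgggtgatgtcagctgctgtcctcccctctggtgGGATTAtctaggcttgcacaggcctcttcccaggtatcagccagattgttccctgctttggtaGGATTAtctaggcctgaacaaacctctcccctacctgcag
The matches start at positions -94 and -21 from the gene start in Crx, -58 and -25 in Cngb1, and -53 and 11 in Aipl1. All 3 genes were lower in the punch of every eye.

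Cones, the photoreceptors of daylight colour vision, gave the same picture: 8 of 9 cone genes were higher in the retina, all 8 at 2-fold or more, with a median of -2.18. Opn1mw, the middle-wavelength opsin, ran from 8.18 to 8.60 in the retina with a median of 8.41 and from 4.12 to 5.97 in the ONH with a median of 4.96, and differed by -3.44 ± 0.15 (limma adjusted p = 2.63e-10). The short-wavelength opsin Opn1sw differed by -2.57, the cone arrestin Arr3 by -2.57 and the phosphodiesterase subunit Pde6h by -2.79. None of these overlapped between tissues. Gngt2, the cone transducin gamma subunit, was the member that did not pass, at -0.01 with a 95% interval from -0.12 to 0.11 and a level near 5 in both tissues.

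Rod gene levels varied from punch to punch. The mean over the 20 rod genes ran from 8.16 to 10.39 over the ONH arrays and from 11.47 to 11.56 over the retina arrays. Taken eye by eye, the rod mean fell by 3.40 in eye 4 and by 1.14 in eye 2, with the other 8 eyes between. A list of ribbon synapse and vesicle release genes, which joins genes of photoreceptor and bipolar terminals with release genes of neurons in general such as Syt1 and Snap25, went the same way: 15 of 15 were higher in the retina (median -0.98), with Cplx4 (complexin 4) at -2.34, Slc17a7 (the vesicular glutamate transporter VGLUT1) at -2.09 and Cacna2d4 (a subunit of their calcium channel) at -2.02.

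**Figure D2:**
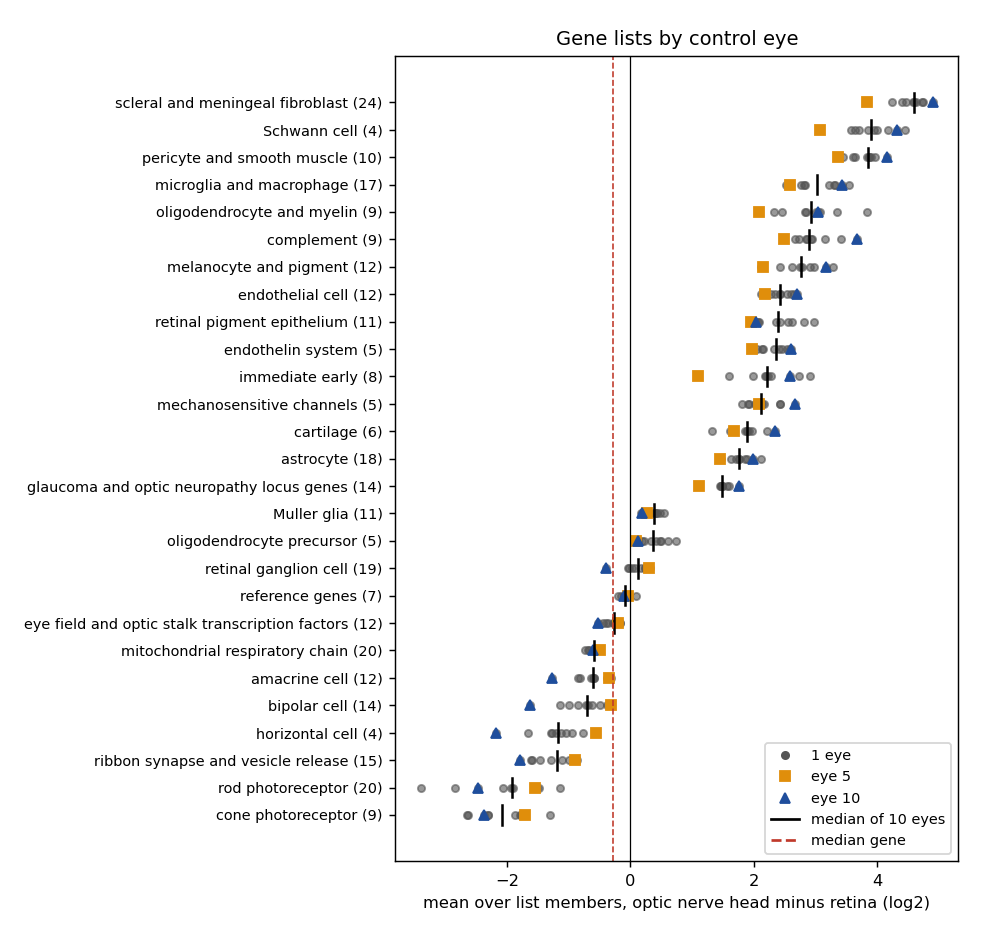
Mean ONH minus retina difference (log2, horizontal) over the tested members of each gene list (vertical, number of genes in brackets), 1 point per control eye, with the median of 10 eyes as a bar, the median gene as a dashed line, and eyes 5 and 10 marked. Lists of rods and cones lie left of 0 in all 10 eyes and lists of fibroblasts, mural cells, microglia and pigment epithelium right of 0 in all 10, and the spread between eyes is widest for rods.

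Inner retinal neurons were lower in the punch by less. Of 14 bipolar cell genes 12 were higher in the retina, 1 was higher in the ONH and 1 did not pass, with a median of -0.94. Over all genes tested, 57.5% were higher in the retina and the median was -0.29. Gng13 (a G-protein gamma subunit of ON bipolar cells) differed by -1.52 ± 0.16 and Otx2 (a homeodomain factor of bipolar cells, photoreceptors and pigment epithelium) by -1.12 ± 0.10. The exception was Trpm1, the cation channel of ON bipolar dendrites, which is also a gene of pigment cells. It ran from 9.49 to 10.63 with a median of 10.45 in the ONH and from 7.79 to 10.10 with a median of 9.31 in the retina, and was higher in the ONH by 1.13 ± 0.16 (limma adjusted p = 2.53e-05). The 2 sets of arrays overlapped, although the ONH was higher in each of the 10 eyes.

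Amacrine cells, inhibitory interneurons, had 10 of 12 genes higher in the retina, beside 57.5% of all genes. In this list 1 gene was higher in the ONH and 1 did not pass (median -0.73). Gad1, which makes the transmitter GABA, differed by -0.78 ± 0.09, the vesicular GABA transporter Slc32a1 by -1.002 ± 0.11 and the transcription factor Tfap2b by -0.98 ± 0.11. The glycine transporter Slc6a9 did not pass at 0.01, with a 95% interval from -0.12 to 0.13, but was called higher in the ONH (0.278) with quantile normalization. All 4 horizontal cell genes were higher in the retina (median -1.24), with Lhx1, a factor that sets their position, at -1.84 ± 0.17 and the calcium buffer Calb1 at -1.16 ± 0.14. In eye 10 the bipolar, amacrine and horizontal means were the lowest of the 10 eyes, at -1.63, -1.27 and -2.17.

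Ganglion cell genes did not follow either tissue as a group. Of 19 tested, 5 were higher in the ONH, 10 were higher in the retina and 4 did not pass, with a median of -0.27 beside -0.29 for all genes. Pou4f1, a factor that defines most ganglion cells, ran from 8.93 to 10.51 with a median of 10.06 in the ONH and from 10.05 to 10.60 with a median of 10.26 in the retina. These ranges overlapped, and the difference of -0.29 did not pass (limma adjusted p = 0.0527, 95% interval from -0.56 to -0.01). Slc17a6 (the vesicular glutamate transporter VGLUT2) differed by -0.72 ± 0.11 and the nicotinic receptor subunit Chrnb3 by -0.86 ± 0.16.

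Among the neurofilament genes, whose proteins fill the axon, the light chain Nefl was lower in the ONH (-0.53 ± 0.09), the medium chain Nefm did not pass (-0.27, adjusted p = 0.0542) and the heavy chain Nefh was higher in the ONH. Nefh ran from 9.05 to 9.92 with a median of 9.45 in the ONH and from 7.68 to 8.11 with a median of 7.91 in the retina, a difference of 1.55 ± 0.10 (limma adjusted p = 8.31e-09) without overlap. The largest difference towards the ONH in the list was that of Sptbn4, the beta IV spectrin of axon initial segments and nodes of Ranvier, at 7.31 to 9.07 in the ONH against 4.25 to 5.11 in the retina (3.38 ± 0.18). Rbpms (1.82) and Ebf1 (0.86), which mark ganglion cells in the retina and are known from vascular mural cells elsewhere, were higher in the ONH, and so was Sncg (gamma-synuclein) by 0.24. For Rbpms the 4 expressed probe sets ran from -0.07 to 1.84, so its size depends on the probe set. The call of Sncg was lost without eye 5 (limma adjusted p = 0.0564) or eye 6 (adjusted p = 0.06). It was also lost with 1 mean value per mouse (adjusted p = 0.0994) and with all eyes of the series in 1 fit (adjusted p = 0.111). In the 4 eyes whose ONH labels lack a radiation field the adjusted p was 0.662.

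**Figure D3:**
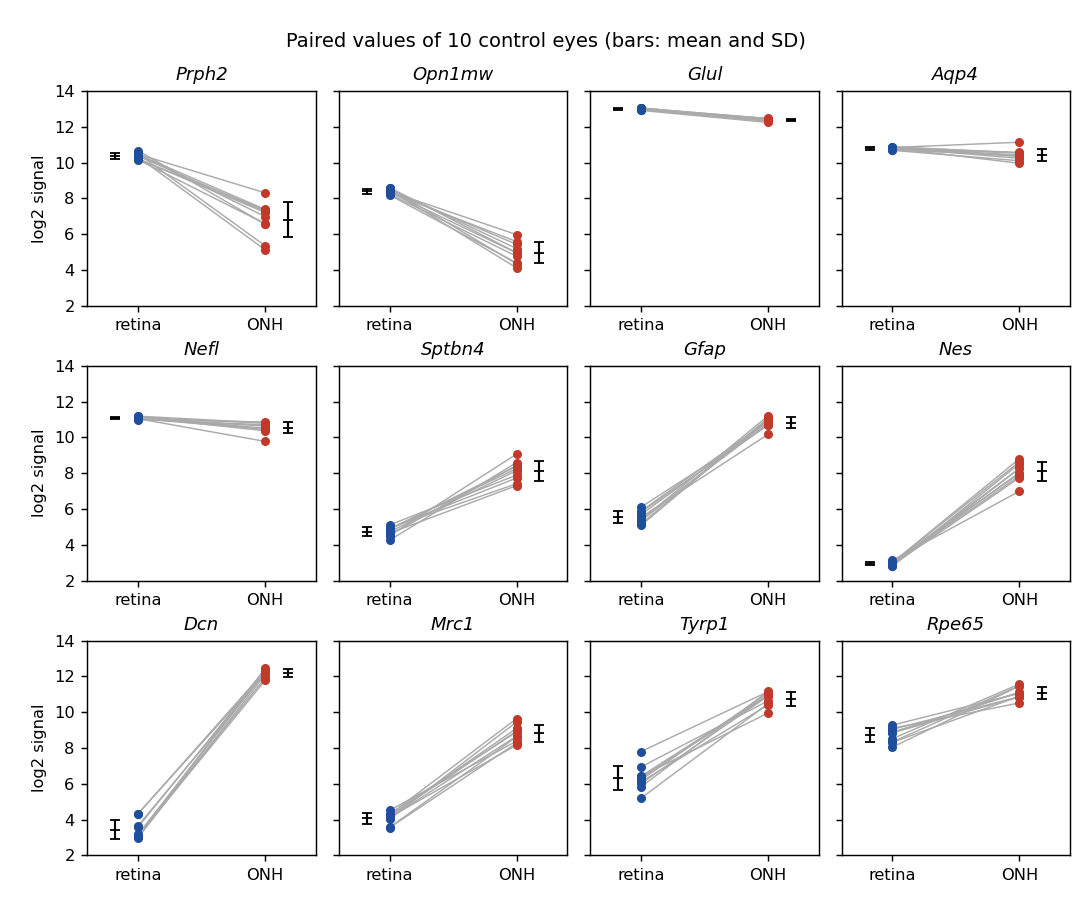
Log2 level in the retina and in the ONH of each control eye for 12 genes, with a line joining the 2 arrays of an eye (n = 10 eyes) and bars for the mean and SD. The lines of Prph2, Opn1mw, Glul and Nefl fall from retina to ONH in all 10 eyes, those of Sptbn4, Gfap, Nes, Dcn, Mrc1, Tyrp1 and Rpe65 rise in all 10, and Aqp4 is higher in the ONH of 1 eye.

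Astrocyte genes were higher in the ONH: 15 of 18 were called higher there, 10 of them at 2-fold or more, and 3 were higher in the retina (median 1.58). Gfap, the intermediate filament of astrocytes, ran from 10.17 to 11.19 with a median of 10.89 in the ONH and from 5.08 to 6.10 with a median of 5.46 in the retina, a difference of 5.29 ± 0.13 (39.1-fold, limma adjusted p = 1.38e-12). S100b, a calcium-binding protein of astrocytes, differed by 5.43 ± 0.13 and Nes (nestin, another intermediate filament) by 5.19 ± 0.14. No array of one tissue reached the other for these 3 genes. Vim (vimentin) and Sox9 (a glial transcription factor), both of which Müller glia also express, were higher by 2.17 and 1.98.

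The 3 astrocyte genes called higher in the retina had small differences. Aqp4, the water channel of glial endfeet, ran from 9.96 to 11.14 in the ONH and from 10.68 to 10.89 in the retina and differed by -0.36 ± 0.08. Its call was lost with quantile normalization across tissues (-0.124, adjusted p = 0.2), with all eyes of the series in 1 fit (adjusted p = 0.0636) and in the 4 eyes whose ONH labels lack a radiation field (adjusted p = 0.164). Slc1a2 (a glutamate transporter) differed by -0.50 ± 0.09. Aldoc (aldolase C) differed by -0.26, but its 2 expressed probe sets disagreed, at -0.28 and 2.14, and quantile normalization ended the call (-0.033, adjusted p = 0.695). Of the 11 Müller glia genes 6 were higher in the ONH, 4 in the retina and 1 did not pass (median 0.41). Glul, the glutamine synthetase by which Müller glia clear glutamate, ran from 12.92 to 13.06 with a median of 12.998 in the retina and from 12.24 to 12.47 with a median of 12.40 in the ONH. That is a difference of -0.62 ± 0.04 (limma adjusted p = 1.09e-08) with no overlap. Apoe, which carries lipid between glia and neurons, was higher in the ONH by 1.65 and the retinol dehydrogenase Rdh10 by 1.47. The retinaldehyde-binding protein Rlbp1, at -0.22 (adjusted p = 0.0144), changed sign to 0.011 when the arrays were quantile normalized across tissues, and the potassium channel Kcnj10 did not pass (-0.25, adjusted p = 0.0513).

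Gja1, the gap junction protein connexin 43 of astrocytes, was higher in the ONH by 1.53 ± 0.25, but its retina level in eye 6 was 8.03 against at least 10.36 in every other retina. Without eye 6 the difference was 1.24. Ltbp2, a latent TGF-beta binding protein, and Vcan (versican, a matrix proteoglycan) had the same gap, with 2.34 and 4.11 in the retina of eye 6 and at least 4.98 and 6.79 in the others.

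Most of the tested myelin genes were higher in the punch. Of 19 oligodendrocyte and myelin genes on the array 9 passed the filter, 8 of them higher in the ONH, with a median of 2.88. Among the untested, Mog, Mag, Opalin, Gjc3, Olig1, Olig2, Myrf and Fa2h had mean levels under log2 5 in both tissues. Of the tested, Mal, Cldn11, Aspa and Sox10 stayed under 5 in every retina, so the filter fixed their direction. Mal, a lipid raft protein of myelin, ran from 7.598 to 9.793 with a median of 8.80 in the ONH and from 3.75 to 4.71 with a median of 4.25 in the retina (4.51 ± 0.22, limma adjusted p = 5.93e-10). Aspa (aspartoacylase) and Sox10 (a transcription factor of oligodendrocytes, Schwann cells and melanocytes) were higher by 3.35 and 3.28. Cldn11, a tight junction protein of myelin that meningeal cells also make, was higher by 6.33. Mbp, myelin basic protein, was tested on its probe set brightest on average over both tissues, which was lower in the ONH (-0.55). Its 6 other expressed probe sets were higher there by 2.36 to 6.82, each of them in all 10 eyes. The mean of its probe sets gave 4.08. Mbp was thus the 1 tested gene of the list called lower in the ONH, through that 1 probe set only.

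Several myelin genes fell into a high and a low range among the ONH punches. Mobp, a protein of compact central myelin, did not pass the filter and was not tested, and its levels are given as a description. Its ONH level in eyes 1, 2, 3, 5 and 6 was 3.84, 4.58, 5.54, 3.80 and 4.29. In eyes 4, 7, 8, 9 and 10 it was 11.66, 10.00, 10.33, 10.16 and 10.46. All 10 retinas lay between 2.78 and 3.21, under every ONH array. The ONH levels of eyes 1, 2, 5 and 6 were also under log2 5, so their gap to the retina is not a measured one. On another Mobp probe set the tissues overlapped, with a lowest ONH level of 2.66 and a highest retina level of 2.87.

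Bcas1, a gene of newly myelinating and mature oligodendrocytes, divided the same eyes, with ONH levels of 9.88 to 11.52 in eyes 4, 7, 8, 9 and 10 and of 5.23 to 6.89 in the others, against 3.05 to 3.54 in the retina. Tmem88b, a membrane protein gene, ran from 4.85 to 10.63 in the ONH. The division ran within animals: eyes 4 and 5 came from 1 mouse and eyes 6 and 7 from another, and in each pair 1 punch was high and 1 low, while eyes 2 and 3 of the third such mouse were both low. The ONH arrays also differ in how they were labelled, 6 (eyes 1, 2, 3, 5, 6 and 7) having a field for radiation, given as none, that the other 4 lack. All 4 punches without the field (eyes 4, 8, 9 and 10) were in the high range, and of the 6 with it only eye 7 was, so the division nearly follows the label sets. The retina arrays all lack the field, so in 6 eyes the ONH and retina arrays also differ in it. Over all 11487 genes tested, a limma comparison of the ONH arrays by label set gave 0 genes at an adjusted p under 0.05. At an unadjusted p under 0.05 there were 907. The retina arrays, split by the label of the same eye's ONH array, gave 0 and 941 genes. With 6 eyes against 4, such a comparison can miss a difference. How far back the nerve was cut in each punch is not in the labels, and its part in the division was not tested.

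**Figure D4:**
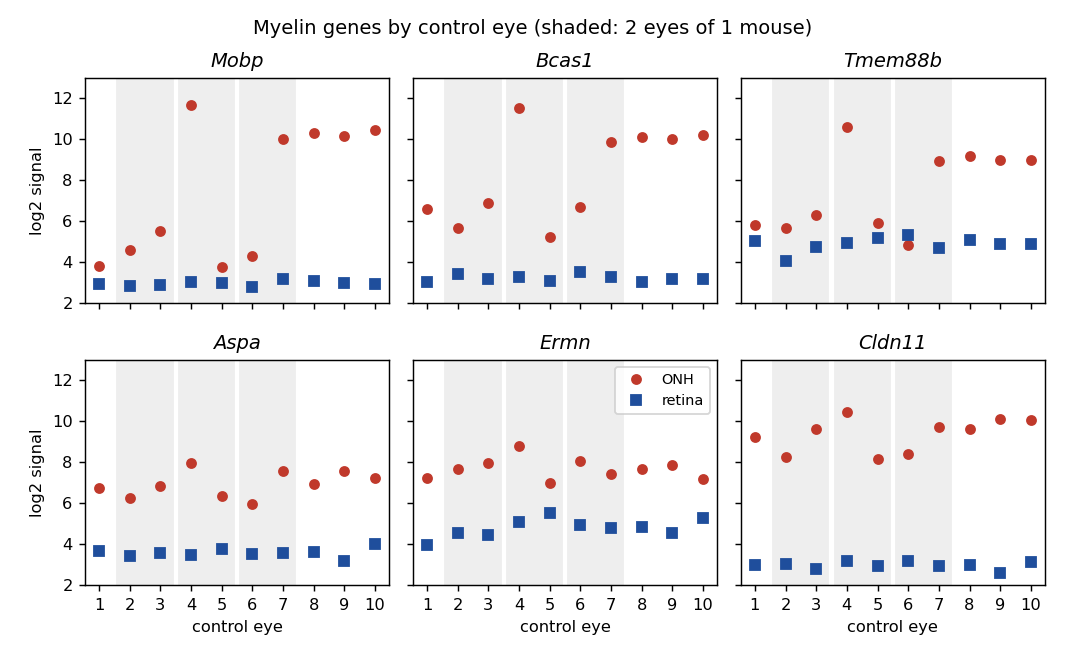
Log2 level (vertical) of 6 genes in the ONH and retina array of each of the 10 control eyes (horizontal), with a shaded band over the 2 eyes of 1 mouse. In the ONH, eyes 4, 7, 8, 9 and 10 lie high and eyes 1, 2, 3, 5 and 6 low for Mobp, Bcas1 and Tmem88b, while Aspa, Ermn and Cldn11 are above the retina in every eye.

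Schwann cell genes, of the glia that wrap peripheral nerves, were higher in the ONH in 4 of 4 tested (median 3.60). Egr2, a master regulator of peripheral myelin that also belongs to the early stress response genes, differed by 5.95 ± 0.21, the cadherin Cdh19 by 4.76 ± 0.12 and Pmp22, a peripheral myelin protein with wider expression, by 2.44 ± 0.06. Oligodendrocyte precursor genes were divided, 2 higher in the ONH, 2 higher in the retina and 1 not passing. Pdgfra, the growth factor receptor of precursors and also of fibroblasts, was higher in the ONH by 3.64, and Lhfpl3 higher in the retina, with a difference of -1.81.

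Connective tissue had the largest median of the 28 lists with a tested gene. All 24 scleral and meningeal fibroblast genes were higher in the ONH, 19 of them at 8-fold or more, with a median of 4.58. The mean over these genes ran from 9.47 to 10.33 on the ONH arrays and from 4.95 to 5.63 on the retina arrays, so no array of one tissue came near the other. Beside Dcn, Col3a1, Lum and Bgn, the type I collagen chain Col1a2 was at 10.28 to 11.36 in the ONH and 3.94 to 5.48 in the retina (5.79 ± 0.14, limma adjusted p = 1.47e-12), and Foxc1, a transcription factor of the eye's mesenchyme, was higher by 4.86. Cartilage genes were mixed, with 4 of 6 higher in the ONH. Among these Cytl1, a cytokine-like protein of cartilage, was higher by 4.81, while Col2a1, the main cartilage collagen, was lower by a difference of -0.72 and near the filter level.

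Vessels came next. All 10 pericyte and smooth muscle genes were higher in the ONH (median 3.99), led by Acta2, the smooth muscle actin, with 10.46 to 11.19 and a median of 10.89 in the ONH against 4.04 to 4.87 and a median of 4.62 in the retina (6.41 ± 0.11, limma adjusted p = 9.10e-14). The smooth muscle myosin Myh11 and the actin-binding protein Tagln were both higher by 5.53. Rgs5, a marker of capillary pericytes, differed by a smaller 2.14.

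Of 12 endothelial genes 11 were higher in the ONH (median 2.36). Emcn, the sialomucin of veins and capillaries, ran from 8.33 to 9.15 in the ONH and 3.41 to 4.31 in the retina (4.82 ± 0.09), the clotting factor Vwf was higher by 4.33 and the angiopoietin receptor Tek by 3.44. Cldn5, a tight junction protein of barrier endothelium, was higher by 2.52. The glucose transporter Slc2a1, found in barrier endothelium and in photoreceptors, did not differ detectably at 0.00 (95% interval from -0.09 to 0.10, limma adjusted p = 0.958) on 1 probe set. With the mean of its probe sets it was lower in the ONH (-0.121), and with quantile normalization across tissues it was higher (0.337), both past the threshold.

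Immune genes were higher in the punch of these healthy eyes. Of 17 microglia and macrophage genes 16 were higher in the ONH, 11 at 8-fold or more (median 3.36), and Lyve1, a receptor of lymphatic endothelium and some macrophages, did not pass (-0.20, adjusted p = 0.0833). Mrc1, the mannose receptor of perivascular and meningeal macrophages, ran from 8.17 to 9.65 in the ONH with a median of 8.78 and from 3.55 to 4.52 in the retina with a median of 4.15 (4.71 ± 0.13, limma adjusted p = 4.35e-12). The leukocyte phosphatase Ptprc was higher by 4.51, the complement subunit C1qc by 4.08, the lysosomal protein Cd68 by 4.01 and the class II chain Cd74 by 3.84. Of 3 genes known to mark resident microglia, Tmem119 differed by 2.61 ± 0.12, Cx3cr1 by 1.31 ± 0.14 and P2ry12 by 1.06 ± 0.14. Mrc1, Ptprc, C1qc, Cd68, Tmem119 and Cx3cr1 stayed under log2 5 in every retina, so the filter fixed their direction.

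Complement, the protein cascade that tags cells and synapses for removal, had 8 of 9 genes higher in the ONH (median 3.83). C1s1, a protease of the first complex, was at 7.596 to 9.273 in the ONH and 2.91 to 3.38 in the retina (5.10 ± 0.15), its inhibitor Serping1 was higher by 4.63 and the anaphylatoxin receptor C5ar1 by 3.83. The exception was Cd59a, which blocks the membrane attack complex. It ran from 9.50 to 9.97 with a median of 9.68 in the retina and from 8.35 to 8.96 with a median of 8.72 in the ONH, a difference of -0.96 ± 0.06 (limma adjusted p = 7.89e-09) with no overlap.

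No gene of the list for other leukocytes passed the filter. Untested for that reason, the mast cell proteases Cpa3 and Mcpt4 were at 4.97 to 8.59 and 3.63 to 7.94 in the ONH and the T cell receptor component Cd3e at 4.49 to 7.02. In the retina these 3 genes reached at most 3.15, 2.52 and 3.08. The skeletal muscle and erythrocyte lists also had no gene past the filter, and of the lens list only the small heat shock protein Cryab, which glia also make, passed it.

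Genes of the pigment epithelium behind the photoreceptors were higher in the punch. All 11 were higher in the ONH, with a median of 2.15. Rpe65, the isomerase that regenerates visual pigment, ran from 10.52 to 11.58 with a median of 11.08 in the ONH and from 8.05 to 9.28 with a median of 8.86 in the retina (2.40 ± 0.18, limma adjusted p = 3.03e-08). The tissues did not overlap, but the retina samples also gave a clear signal. Lrat, which esterifies retinol, was higher by 3.28, the opsin-related Rgr by 2.37 and the vitamin A receptor Stra6 by 3.16. Serpinf1, the secreted factor PEDF, was higher by 5.498, the largest difference in the list, and fibroblasts are known to make it too.

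Melanocyte and pigment genes were all higher in the ONH, 12 of 12, 11 at 2-fold or more, with a median of 2.73. Mlana, a melanosome protein, ran from 7.77 to 9.24 in the ONH and from 3.30 to 5.52 in the retina (4.52 ± 0.16), and Tyrp1, an enzyme of melanin synthesis, from 9.95 to 11.16 and from 5.20 to 7.80 (4.48 ± 0.18). Pmel, the fibril protein of melanosomes, was higher by 3.77, the enzymes Dct and Tyr by 3.67 and 2.81 and Mitf, the transcription factor that directs the pigment program, by 1.32. Gpnmb, the gene restored in these controls, was higher by 0.33 on its highest-signal probe set and by 4.49 on the other.

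MITF is known to bind the letters CATGTG. Searched on both strands in the same windows, they occurred in 4 of 7 pigment genes (57.1%), 15.9% of all genes with a window and 10.0% of the tested genes. Rod genes held them in 15.4% of cases. Shown are 2 enzymes of melanin synthesis, with CATGTG or its reverse complement CACATG in capitals: Tyrp1 (chr4:80833963-80834262, plus strand), where the match starts at -46, and Tyr (chr7:87493463-87493762, minus strand), where it starts at -21. The letters come from the RefSeq reference assembly and not from DBA/2J.
Tyrp1: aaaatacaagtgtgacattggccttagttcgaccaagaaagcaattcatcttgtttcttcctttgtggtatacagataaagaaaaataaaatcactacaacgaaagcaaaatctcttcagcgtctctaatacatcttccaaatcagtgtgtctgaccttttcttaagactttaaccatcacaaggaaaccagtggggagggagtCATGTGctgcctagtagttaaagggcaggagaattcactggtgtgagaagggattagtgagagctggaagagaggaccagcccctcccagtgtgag
Tyr: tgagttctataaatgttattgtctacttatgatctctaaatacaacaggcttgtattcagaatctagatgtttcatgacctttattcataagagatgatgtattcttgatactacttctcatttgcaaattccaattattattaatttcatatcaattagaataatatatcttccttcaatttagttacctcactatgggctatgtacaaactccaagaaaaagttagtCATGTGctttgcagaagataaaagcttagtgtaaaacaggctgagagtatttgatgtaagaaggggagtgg
Both genes were higher in the ONH of each of the 10 eyes. The SOX-type letters ACAAAG, searched the same way, occurred in 5 of 14 myelin genes (35.7%), 4 of 7 pigment genes and 30.8% of rod genes, beside 21.0% of all genes, and the windows that hold 1 kind of letters may hold another.

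Genes named at loci for glaucoma or optic neuropathy were unevenly placed. Of 14 tested, 10 were higher in the ONH and 4 in the retina, with a median of 0.89. Angpt1, the ligand of Tek, ran from 7.81 to 9.21 in the ONH and 3.57 to 4.49 in the retina (4.66 ± 0.15, limma adjusted p = 1.46e-11), Cyp1b1 (a cytochrome P450 of the eye's drainage tissue) was higher by 3.11 and Loxl1, which cross-links elastin, by 2.88. Higher in the retina were Six6, a transcription factor of the retina and optic stalk (-0.57), Opa1, the mitochondrial fusion protein mutated in dominant optic atrophy (-0.50), and Gas7, a gene of neurite growth (-0.90).

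The endothelin system, whose peptides constrict vessels and act on astrocytes, was higher in the ONH in the 5 of 5 genes that passed the filter (median 2.26). Edn3 and Edn1, 2 of its ligands, were higher by 3.92 and 2.26, the converting enzyme Ece1 by 1.27, and the receptor Ednrb ran from 11.43 to 12.04 in the ONH and from 8.12 to 8.96 in the retina (3.44 ± 0.08, limma adjusted p = 6.79e-13). Of 5 mechanosensitive channel genes 4 were higher in the ONH. Piezo2, a stretch-gated cation channel, was at 10.47 to 11.19 in the ONH with a median of 10.64 and at 3.94 to 6.27 in the retina with a median of 4.34 (6.03 ± 0.20, limma adjusted p = 1.70e-11), and the potassium channel Kcnk2 (TREK-1) was higher by 1.97. Neither gene overlapped between tissues.

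Transcription factors that pattern the eye were divided between the tissues, 5 of 12 higher in the ONH and 7 in the retina. Of all genes tested, 29% and 57.5% were, so the retina count is near the share for any genes. Nr2f1, a factor of the optic stalk and ventral retina, was higher in the ONH by 2.17 ± 0.11, Foxd1 by 1.87 and Sox2 by 0.87. Beside Tbx5 and Crx, the retina held more Rax (-1.13), which specifies the eye field, and Vax2 (-0.79), a ventral retina factor.

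Immediate early genes, which respond within minutes to stimuli and to handling of tissue, were higher in the ONH in 8 of 8 tested (median 1.78). Fos ran from 11.20 to 12.13 in the ONH with a median of 11.91 and from 9.55 to 10.60 in the retina with a median of 10.10 (1.68 ± 0.10, limma adjusted p = 4.35e-09). Zfp36 was higher by 4.07, Nr4a1 by 3.71, Fosb by 3.24 and Atf3 by 1.89. Their ONH levels varied widely between punches, with 5.43 to 9.50 for Fosb and 3.96 to 4.30 in the retina. The labels say that the ONH was taken before the retina, and the part of dissection time was not tested.

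Respiratory chain genes, rich in photoreceptors, were higher in the retina in 19 of 20 cases (median -0.55), beside 57.5% of all genes. Cox5a, of complex IV, differed by -1.09 ± 0.07 and Ndufb8, of complex I, by -1.38 ± 0.06, although the mean of the Ndufb8 probe sets (-0.08) did not pass, and Sdhb of complex II did not pass (-0.18, adjusted p = 0.0703). Genes often used as references were not level: B2m, the light chain of class I molecules, was higher in the ONH by 2.72 ± 0.05, and Hprt, Tbp and Gapdh were higher in the retina, at -1.08, -0.79 and -0.78. Actb was closest to 0, at -0.05 with a 95% interval from -0.15 to 0.05, but its sign turned to 0.289 with quantile normalization and to 0.897 with the mean of its probe sets. The log2 difference between the 3' and 5' Gapdh control probe sets, a measure of how complete the RNA or its copy is, was 0.97 to 1.60 on the ONH arrays (median 1.23) and 0.84 to 0.95 on the retina arrays (median 0.87). For Actb it was 1.52 to 2.20 (median 1.69) and 1.41 to 1.81 (median 1.72). The part of this measure in the results was not tested.

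Punches varied more than retinas. The median SD over the 10 arrays was 0.229 for ONH punches and 0.126 for retinas, and the ONH had the larger SD in 10286 genes (89.5%). The genes with the largest ONH SD included Bcas1, Tmem88b, the immunoglobulin genes Ighm and Igha and Car3, a carbonic anhydrase of fat and muscle. Ighm, the heavy chain of IgM, was at 12.42 in the ONH of eye 7, with a median of 5.27 over the 10 ONH arrays, and its difference of 1.58 (limma adjusted p = 0.0314) became 0.85 without that eye and no longer passed (adjusted p = 0.0692). The call was also lost without eye 2, 3, 6 or 9, at adjusted p-values up to 0.0782. Other settings that ended it were no mouse block (limma adjusted p = 0.0585), 1 mean value per mouse (0.0571) and no pairing by eye (0.0664). In the 4 eyes whose ONH labels lack a radiation field the adjusted p was 0.268. Igha, the heavy chain of IgA, ran from 5.96 to 11.88 in the ONH and from 3.67 to 4.04 in the retina, so that it was high in some punches and still above the retina in all.

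The tissue contrast of the control eyes was then set against that of the no or early DBA/2J eyes, which came from other mice of the other Gpnmb genotype. There, 3534 genes (30.8%) were higher in the ONH and 6759 (58.8%) in the retina. Of the 1721 genes at least 2-fold higher in the control ONH, 1717 (99.8%) were also called higher in the ONH of the DBA/2J eyes and 1677 (97.4%) at 2-fold or more. Of the 1382 genes at least 2-fold higher in the control retina, 1381 were called in the same direction and 1262 (91.3%) at 2-fold or more.

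The contrast itself differed between the groups in 221 genes (1.92% of those tested), being larger in control eyes in 87 (0.757%) and smaller in 134 (1.17%), of which 14 (0.122%) each way differed by 2-fold or more. At an unadjusted p under 0.05 there were 1824. The fit took the within-mouse correlation as -0.157, and without the mouse block the counts were 48 and 78. Leaving out 1 control eye at a time gave between 41 and 251 genes with a larger and between 43 and 280 with a smaller contrast in controls, the lowest without eye 6 (41 and 43) and the highest without eye 10 (251 and 280). The counts are therefore loose, and the genes named here with a difference between the groups passed without any 1 control eye unless stated. Of the 12 pigment genes 10 differed, all 10 with the larger ONH excess in controls, and the median of the list was 2.73 in controls and 1.13 in DBA/2J eyes. Pmel was higher in the ONH by 3.77 in control eyes and 0.21 in DBA/2J eyes (difference 3.55, limma adjusted p = 5.53e-13), Tyrp1 by 4.48 and 1.03 (3.44, adjusted p = 6.76e-10) and Mlana by 4.52 and 1.34 (3.17, adjusted p = 6.76e-10).

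Trpm1 and Pax3, a transcription factor of melanocytes, even differed in direction, at 1.13 and 1.70 in control eyes and -0.92 and -0.95 in DBA/2J eyes (differences 2.04 and 2.66, both called). The ONH excess of Gfap was 5.29 in controls and 4.46 in DBA/2J eyes (difference 0.83, limma adjusted p = 0.00308). The difference was lost with the mean of its probe sets (0.277, limma adjusted p = 0.432) and with all eyes of the series in 1 fit (limma adjusted p = 0.0872). On the other side, the ONH excess of Il1rn, the antagonist of interleukin 1, was 3.50 in controls and 5.38 in DBA/2J eyes, that of Il7r (the interleukin 7 receptor) 4.74 and 6.12 and that of Ctsk, a lysosomal protease, 1.86 and 3.08. Npy, a peptide transmitter of some amacrine cells, was lower in the ONH by a difference of -1.04 in controls and stood at 0.42 in DBA/2J eyes. A tissue contrast can differ through either tissue, and which of the 2 moved was not tested here. The median of the rod list was -2.02 in control eyes and -2.06 in DBA/2J eyes.

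**Figure D5:**
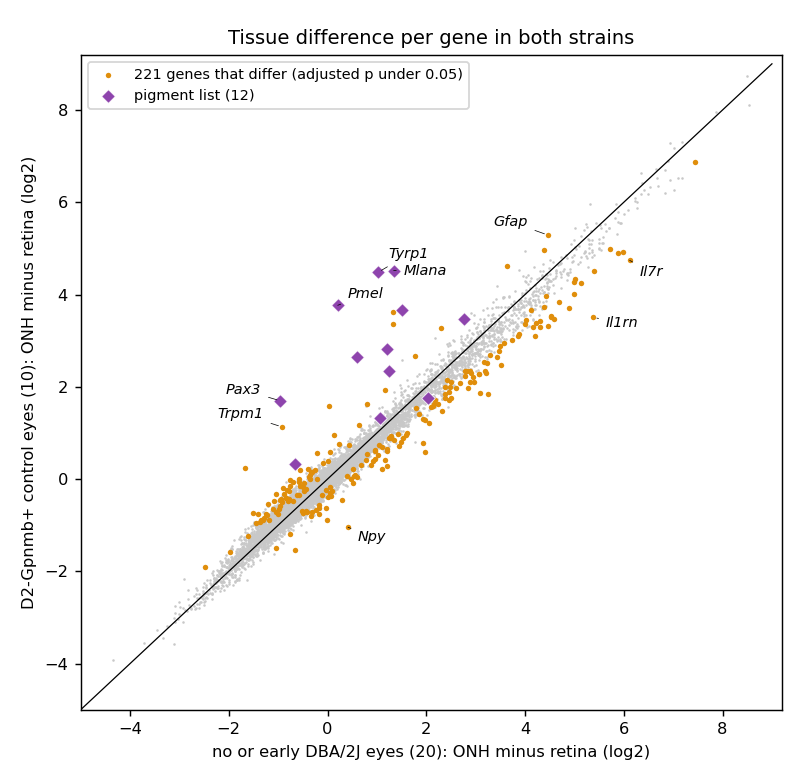
ONH minus retina difference (log2) in the 10 control eyes (vertical) against the 20 no or early DBA/2J eyes (horizontal) for the genes tested, with a line at equal differences, the 221 genes whose contrast differed between the groups in orange and the 12 pigment genes as diamonds. Most points lie near the line, and pigment genes such as Pmel, Tyrp1 and Mlana lie far above it.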

How the data were processed

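RNA from the ONH punch and the retina of each eye was amplified and labelled as biotin cDNA and hybridized to Affymetrix Mouse Genome 430 2.0 arrays, per the labels' protocols. The deposited values are log2 RMA signals per probe set, and the tools named are GCOS, RMA and affy, per the submitters' processing notes. They were used as they stand.

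Of 45101 probe sets, 34958 belonged to exactly 1 gene in the platform annotation, 932 to several and 9211 to none, and 34754 of the first were matched to current symbols by Entrez number. For each gene the probe set brightest on average over the 20 control arrays was kept and tested if that reached log2 5 on at least 10 of them, a level that is a filter and not a measured background. Where a tissue's mean lay under 5, a bound with that tissue set at 5 was also computed.

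The ONH minus retina difference of each eye was fitted with limma 3.58.1 in R 4.3.3 (lmFit and eBayes), with the mouse as a random block through duplicateCorrelation. The within-mouse correlation of the differences was -0.231, a negative value that narrows standard errors. The 20 no or early eyes were fitted the same way, with the correlation (-0.157) taken from the joint fit with the controls, because only 1 of those mice gave both eyes. The difference between the groups was a contrast in that joint fit, with sets 1 and 2 weighted equally. The script was tested on simulated data.

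Pairing rests on the eye and mouse number in the descriptions. In their deviations from the group means, the 2 arrays of an eye correlated between -0.0997 and 0.0717 (median 0.0163). The closest arrays correlated at 0.997, and none were identical.

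Gene lists (31 with 435 members, 397 of them on the array) and named genes were chosen with earlier results of these data known. Named were the 15 largest called differences in each direction, up to 6 called members of a list in each direction and up to 2 that did not pass, the 10 genes with the largest SD in each tissue, the 8 largest group differences in each direction and a set of single genes. Outside this rule, and chosen after their values were seen, are Sox9, Sag, Gnat1, Aipl1, P2ry12, Cx3cr1, Tmem119, Rgs5, Mitf, Mobp, Cpa3, Mcpt4, Cd3e, Gpr158, Usp18, the other interferon and class II genes, Bmp2, Fmod and Xist. Some genes are not reported here.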

Additional observations from a re-analysis of the deposited data

Results flagged for a closer look

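Among 186 named genes, the differences of the 10 control eyes were checked for an eye whose gap to the nearest other eye was large against the whole range, a check that chance meets in about 1 in 20 groups. It was met by 21 genes. Some of the 186 were named for a large SD or after their values were seen, and the genes share the same arrays. The count of 21 therefore cannot be set against 1 in 20. In eye 10, 6 genes were low: Gng13 at -2.917, Gad1 at -1.607, Calb1 at -2.528, Slc17a6 at -1.728, Rlbp1 at -0.832 and Gpr158, an orphan receptor of neurons, at -1.571. The first 5 belong to lists of retinal neurons and glia, and for Gpr158 the other 9 eyes had a median of 1.757.

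Eye 5 was low in Kcne4 (5.242), Tnfaip2 (4.72), Cdh19 (3.679) and Foxc1 (3.789), and in 12 of 28 lists its mean difference was the lowest of the 10 eyes. Eye 6 was high in Gja1 (3.858), Vcan (3.157) and Ltbp2 (3.928), in each case through a low retina array. Eye 4 was low in Cerkl (-5.036) and high in Kcnj10 (0.802) and Usp18 (5.838), an interferon-induced protease. Single values apart from the rest were also seen in eye 1 for Nes (3.866) and Cd59a (-1.419), in eye 7 for Ighm (7.502) and in eye 8 for Pmel (2.263) and Sncg (-0.509).

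The ONH minus retina difference itself differed between control and no or early DBA/2J eyes in 27 of the named genes. The threshold was a limma adjusted p under 0.05 for the difference of differences. The largest group differences in each direction were named by rule, so part of the 27 was fixed by the choice of genes. The count therefore cannot be set against the 221 of all 11487 genes tested (1.92%). The contrast was larger in controls for the pigment genes Pmel (3.547), Tyrp1 (3.439), Mlana (3.169), Pax3 (2.659), Mcoln3 (2.299), Dct (2.14), Slc45a2 (2.065), Trpm1 (2.04), Tyr (1.592) and Gpnmb (0.992), and for Sox10 (0.971), Gfap (0.829) and Gad1 (0.451). It was smaller in controls for Il1rn (-1.869), Npy (-1.46), Rnf128 (-1.384), Cd200r4 (-1.374), Il7r (-1.367), Ctsk (-1.22), Csf2rb2 (-1.167), Dio2 (-1.156), Cd68 (-0.987), Gas7 (-0.894), Loxl1 (-0.611), Lox (-0.563), Gngt2 (-0.493) and Rgs5 (-0.288).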

How the results depend on the processing

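Depth of signal limits genes near log2 5, and the scale between the tissues limits small differences. The median over all genes was -0.29 as deposited, -0.16 after quantile normalization across both tissues and -0.23 with arrays centred on their medians, and the ONH share of the calls was 33.6%, 40.2% and 36.3%. In the control eyes, 186 named genes gave 4249 values under other settings, of which 4179 kept direction and call, 42 lost the call, 22 gained it and 6 changed sign. Many of these genes were named for their large differences, so these counts do not describe all genes tested. The sign changed with the mean of all probe sets for Aldoc (0.949), Mbp (4.08), Slc2a1 (-0.121) and Actb (0.897), where the probe sets of a gene differ, and with quantile normalization for Rlbp1 (0.011) and Actb (0.289). Pou4f1 passed without eye 5, 6 or 9, Nefm without eye 1 or 4, Kcnj10 without eye 4, Lyve1 without eye 1 or 4 and Sdhb without eye 4 or 10. The cause was not tested.

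With no filter, 5390 genes were called higher in the ONH, over 18194 genes in place of 11487. Leaving out 1 eye at a time gave 3236 to 3354 genes higher in the ONH and 6429 to 6673 higher in the retina, and 1686 to 1747 and 1331 to 1439 at 2-fold or more. Without the pairing by eye, that is with the mouse block alone on single arrays, 3301 and 6548 genes were called, and the contrast with DBA/2J eyes gave 61 larger and 101 smaller in controls.

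That contrast moved most. Genes with a larger contrast in controls numbered 87, but 176 with quantile normalization, 48 without the mouse block, 273 with array weights and 29 with all eyes of the series in 1 fit. Those with a smaller contrast numbered 134, but 78 without the mouse block, 412 with array weights and 61 with all eyes in 1 fit. Leaving out 1 control eye, a set of fits chosen after seeing the data, gave 41 to 251 and 43 to 280. The cause was not tested. Of 27 named genes with such a difference, Cd68, Gad1, Lox, Loxl1 and Rgs5 lost it when certain single eyes were left out and Gfap with the mean of its probe sets or all eyes in 1 fit.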

Other observations

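Interferon-induced genes were high in the ONH of a single control eye. In eye 4, Usp18 was at 9.05, Ifit1 at 9.97, Rsad2 at 9.7 and Oasl2 at 8.34, while the other 9 punches reached at most 7.19, 8.94, 8.47 and 7.16. The retina of the same eye was at 3.22, 4.86, 5.22 and 3.42, within the range of the other retinas except for Rsad2, which reached at most 5.1 in them. The other eye of this mouse, eye 5, had ONH levels of 5.69, 6.97, 6.85 and 5.5.

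B cell and antigen-presentation genes were high in the ONH of eye 7. There Ighm was at 12.42, Jchain (the joining chain of secreted antibodies) at 12.18, the transcription factor Irf4 at 8.48 and the class II genes H2-DMb2, H2-Eb1 and H2-Ea at 9.48, 9.23 and 10.46. In the other 9 punches these class II genes reached at most 7.17, 8.22 and 9.21. The retina of eye 7 had 4.91 for Ighm and 3.64, 3.84 and 3.96 for the class II genes, against retina medians of 5.14, 3.67, 3.8 and 3.67.

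The retina of eye 6 was low in genes that were mostly higher in the ONH. Beside Gja1, Vcan and Ltbp2, the growth factor Bmp2 was at 4.1 against 6.38 to 7.19 in the other retinas, the matrix protein Fmod at 6.12 against 8.25 to 9.28, and the zinc finger genes Zic1, Zic2 and Zic5 at 7.3, 5.29 and 4.21 against at least 8.32, 6.6 and 5.52. The monocarboxylate transporter Slc16a12 was at 2.97 against at least 5.92.

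Xist, the RNA that coats the inactive X chromosome, was lowest in eye 10 in both tissues. On 1 probe set it was at 8.67 in the ONH, where the others lay from 10.54 to 10.98, and at 9.79 in the retina, where they lay from 10.43 to 11.13. On another it was at 9.97 against 11.27 to 11.66 and at 11.31 against 11.89 to 12.15. All mice are labelled female, and 9 probe sets of 3 Y-linked genes were at most at 3.2 on all 20 arrays.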
